A study of Mus musculus with 4 samples.

Results

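The annexins are a family of proteins that bind membranes rich in acidic phospholipids when calcium is present. Each carries a conserved core of annexin repeats, which holds the calcium sites, behind an amino-terminal head that differs between members and binds partners such as S100 proteins. They act in membrane traffic, membrane repair and the limiting of inflammation, and several are abundant in myeloid cells. The members followed here were Anxa1, Anxa2, Anxa3, Anxa4, Anxa5, Anxa6, Anxa7 and Anxa11, that is 8 of the 13840 genes that had a probe with a single gene symbol. A gene with several such probes was to be read from the one with the highest mean signal over the 4 arrays. The probes were thus to be chosen by mean signal, but each of these 8 genes had 1 such probe, so this choice was never made, and 7 of the 8 were bright enough to be tested.

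Gene expression was measured in lineage-negative bone marrow, which is left after cells with surface markers of mature blood lineages are removed on magnetic columns and is enriched for stem and progenitor cells. One genotype was wild type on C57BL/6. The other was Mtg16 null, that is without a transcriptional corepressor of the ETO family (symbol Cbfa2t3), at backcross generation N4 into C57BL/6, so the null genotype and any donor-strain genome that remains cannot be told apart. All mice were females of 8 to 12 weeks, the marrow of 4 mice was pooled for an RNA sample, and 2 arrays of each genotype were run, with each of the 2 array lots holding a wild-type and a null array. The series is concerned with stem cell mobilization and the proliferation of progenitors. How the null allele was made is not in the labels, nor is whether the arrays of a genotype came from separate pools. The p-values therefore reflect the spread among 4 hybridised samples, part or all of which may be technical.

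Signals are in normalized array units with a median of 470 on every array, since the deposited arrays share 1 distribution; precision is set by how few arrays there are. A probe's brightness depends on its sequence, so signals are compared between arrays and not between genes. The probe of the targeted gene, Cbfa2t3, averaged 90555 ± 13720 units on the wild-type arrays and 107046 ± 16300 on the null arrays (SD, n = 2). No file says whether this probe lies in a part of the gene that the null allele changes, so its signal is no check of the genotype labels. Probes of Y-linked genes, which female mice lack, read 94.5 to 310 units and serve as a background range. The 7 T and natural killer markers with a probe read 120 to 962 units on the 4 arrays, with Cd3e and Cd4 averaging within the background range in both genotypes and Cd3d, Cd3g and Thy1 above it. Klrb1c and Ncr1 of this list also averaged above it, at 362 and 549 units in wild type and 960 and 858 in the null arrays. The progenitor receptor gene Kit averaged 43311 and 37944 units. Late neutrophil genes, though of a mature lineage, were bright in wild type, where S100a9 averaged 808276 units against 75468 in the null arrays.

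Anxa3 and Anxa5 had the widest separation between the genotypes among the 7 tested annexins. Anxa3 is an annexin of neutrophil granules and of myeloid and other cells, and Anxa5 encodes the annexin used in the laboratory to stain phosphatidylserine on dying cells. Anxa3 averaged 3.04-fold and Anxa5 2.36-fold more signal in the null arrays. Anxa1, Anxa2, Anxa4 and Anxa6 had log2 differences of 0.45 to 0.54, and Anxa7 one of -0.16. In bulk RNA, more cells of a type and more RNA per cell cannot be told apart. Over all genes, 0 of the 7 passed the test (limma adjusted p under 0.05), against 0.118% of the 8445 genes tested, and 0% of them were called with more signal in the null arrays.

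**Figure D1:**
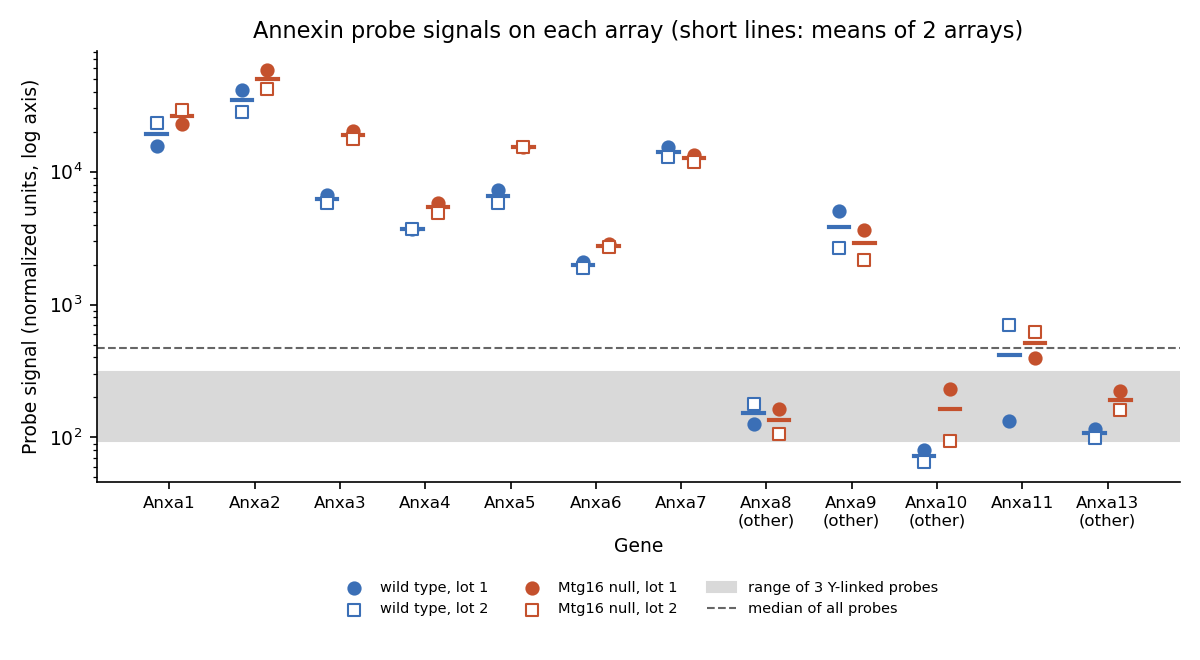
Probe signal in normalized units (log axis) of the 8 annexins and of 4 further family members (marked "other") on each of the 4 arrays, wild type in blue and Mtg16 null in orange, lot 1 as filled circles and lot 2 as open squares, with short lines for the means of 2 arrays. For Anxa3 the null arrays read 17661 and 20289 units, above the 5815 and 6675 of wild type, while the points of Anxa8, Anxa10 and Anxa13 lie in or below the grey range of the Y-linked probes.

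Anxa3 read 6675 and 5815 units on wild-type arrays 1 and 2, and 20289 and 17661 on null arrays 1 and 2. Both null arrays were thus far above both wild-type arrays. The log2 difference, null minus wild type, was 1.60 (SE 0.19, limma adjusted p = 0.0909), and it was 1.60 in lot 1 and 1.60 in lot 2. Ordered from the most positive to the most negative by the smaller of the within-lot differences, Anxa3 held rank 49 of the 8445 genes. Genes with less signal in the null arrays in both lots come last in this order, however large their difference. Some other settings of the test changed its call, while its log2 difference ran from 1.50 to 1.70 over all alternatives. The limma adjusted p was 0.0151 when only the brightest 25% of probes were kept and 0.0180 under a variance trend, and 0.113 with the array lot as a block. It lay between 0.0151 and 0.494 over all alternatives, the higher value being that without null array 1.

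Anxa5 read 7311 and 5799 units on the wild-type arrays and 15363 and 15326 on the null arrays. The null arrays were nearly equal to each other and both above wild type. Its log2 difference was 1.24 (SE 0.20, limma adjusted p = 0.105), with 1.07 in lot 1 and 1.40 in lot 2, since the wild-type arrays differed more than the null arrays did. It passed under the same settings as Anxa3, at a limma adjusted p of 0.0250 for the brightest 25% of probes and 0.0335 under a variance trend, and not with the lot as a block (0.113). Its range over all alternatives was 0.0250 to 0.540.

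Anxa4 and Anxa6 had smaller differences that were repeated in each lot. Anxa4, an annexin of epithelial and secretory membranes, read 3705 and 3679 units on the wild-type arrays and 5840 and 4929 on the null arrays. Its log2 difference was 0.54 (SE 0.19, limma adjusted p = 0.284), 0.66 in lot 1 and 0.42 in lot 2. Anxa6, which carries a doubled set of annexin repeats and binds membranes of the endocytic route, read 2081 and 1889 units on the wild-type arrays and 2846 and 2701 on the null arrays. The log2 difference of Anxa6 was 0.48 (SE 0.17, limma adjusted p = 0.298), 0.45 and 0.52 in the lots. For both genes the groups did not overlap, and neither gene passed under any setting in which it was tested.

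The signals of Anxa1 and Anxa2 differed between the array lots by about as much as between the genotypes. Anxa1, also known as lipocortin, is a glucocorticoid-induced protein that acts on formyl peptide receptors and slows the recruitment of neutrophils. It read 15537 and 23207 units on the wild-type arrays and 23059 and 29332 on the null arrays, so the lower null array lay just below the higher wild-type array and the groups overlapped. Its log2 difference was 0.45 (SE 0.29, limma adjusted p = 0.543), 0.57 in lot 1 and 0.34 in lot 2. Lot 2 read above lot 1 by 0.58 on the log2 scale on the wild-type arrays and by 0.35 on the null arrays.

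Anxa2 forms a complex with S100a10 at the plasma membrane, where it links actin to membranes and binds plasminogen activators. A pseudogene is listed in RefSeq under the synonym Anxa2rp, and whether the probe reads it is not known from the files. The Anxa2 signals were 41328 and 28264 units on the wild-type arrays and 57964 and 41807 on the null arrays, so the groups were apart by a narrow gap. Its log2 difference was 0.53 (SE 0.30, limma adjusted p = 0.497), 0.49 in lot 1 and 0.56 in lot 2. Here lot 1 read higher, with lot 2 minus lot 1 at -0.55 on the wild-type arrays and -0.47 on the null arrays. A lot shift at least this large and of the same sign in both genotypes was seen in 11.8% of the tested genes, and for the shift of Anxa1 the share was 19.6%. With the lot as a block, the SE of Anxa2 was 0.12 and that of Anxa1 0.13, and the limma adjusted p was 0.151 and 0.202.

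Promoter sequence is given for 3 members, 1 from the pair with the wide separation and the 2 whose signals differed between the lots. Of the 8 members, 6 matched the RefSeq promoter table (GRCm38.p6), and Anxa3 and Anxa6 did not. The 250 bases before the annotated start farthest upstream are printed 5′ to 3′ on the gene's strand, with matches to TATAAA or to the E box CANNTG in capitals. Anxa1 lies at chr19:20390672-20390921 (minus strand), Anxa2 at chr9:69453433-69453682 (plus strand) and Anxa5 at chr3:36475888-36476137 (minus strand).
Anxa1: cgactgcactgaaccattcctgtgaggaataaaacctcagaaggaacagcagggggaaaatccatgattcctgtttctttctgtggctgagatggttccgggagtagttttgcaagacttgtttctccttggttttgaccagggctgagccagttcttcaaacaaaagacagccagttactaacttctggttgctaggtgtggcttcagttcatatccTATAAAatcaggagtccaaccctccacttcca
Anxa2: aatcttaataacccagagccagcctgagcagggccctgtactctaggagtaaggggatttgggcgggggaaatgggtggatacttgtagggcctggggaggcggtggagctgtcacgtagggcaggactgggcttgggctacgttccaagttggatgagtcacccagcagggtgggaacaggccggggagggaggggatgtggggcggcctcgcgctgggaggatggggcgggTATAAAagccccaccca
Anxa5: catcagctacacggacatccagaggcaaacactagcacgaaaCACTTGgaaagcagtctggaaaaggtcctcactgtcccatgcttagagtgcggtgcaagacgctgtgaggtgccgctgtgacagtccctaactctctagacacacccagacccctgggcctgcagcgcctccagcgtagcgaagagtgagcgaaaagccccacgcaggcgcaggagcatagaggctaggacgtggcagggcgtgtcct

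The windows differed in composition, with 46.0% G and C in Anxa1, 62.4% in Anxa2 and 58.8% in Anxa5, beside 53.2% over all 32817 windows. TATAAA was found on either strand in 2 of the 6 annexin windows, starting 32 bases before the start of Anxa1 and 17 before that of Anxa2, and in 12.4% of all windows. CANNTG was found in 3 of 6 (Anxa5, Anxa7 and Anxa11) and in 66.2% of all windows. GGGCGG, the GC box, was in 3 of 6 (Anxa2, Anxa7 and Anxa11) and in 32.7% of all. TTGCNNAA, a C/EBP-type motif, was in the Anxa1 window alone and in 9.57% of all. The Runx-type motif TGTGGT was in 0 of 6 and in 14.0% of all windows. AGATAA, which GATA factors bind, was in 0 of 6 and in 9.99% of all. GAGGAAG, a PU.1-type motif, was in 0 of 6 and in 10.6% of all. Of the windows counted but not printed, those of Anxa4 and Anxa11 partly overlap the gene's annotated span, which begins farther upstream. The matches describe letters in the windows and do not show binding.

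Anxa7 and Anxa11 are the members with long heads rich in glycine, proline and tyrosine. Anxa7, or synexin, read 15360 and 12816 units on the wild-type arrays and 13433 and 11792 on the null arrays. These groups overlapped, and the log2 difference was -0.16 (SE 0.20, limma adjusted p = 0.786), with -0.19 and -0.12 in the lots. Anxa11, which tethers RNA granules to lysosomes, was too dim to be tested. Its signals were 133 and 696 units on the wild-type arrays and 398 and 624 on the null arrays, so the wild-type arrays held both the lowest and the highest value. The log2 difference of Anxa11 was 1.57 in lot 1 and -0.16 in lot 2, and wild-type array 1 lay in the Y-linked background range.

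**Figure D2:**
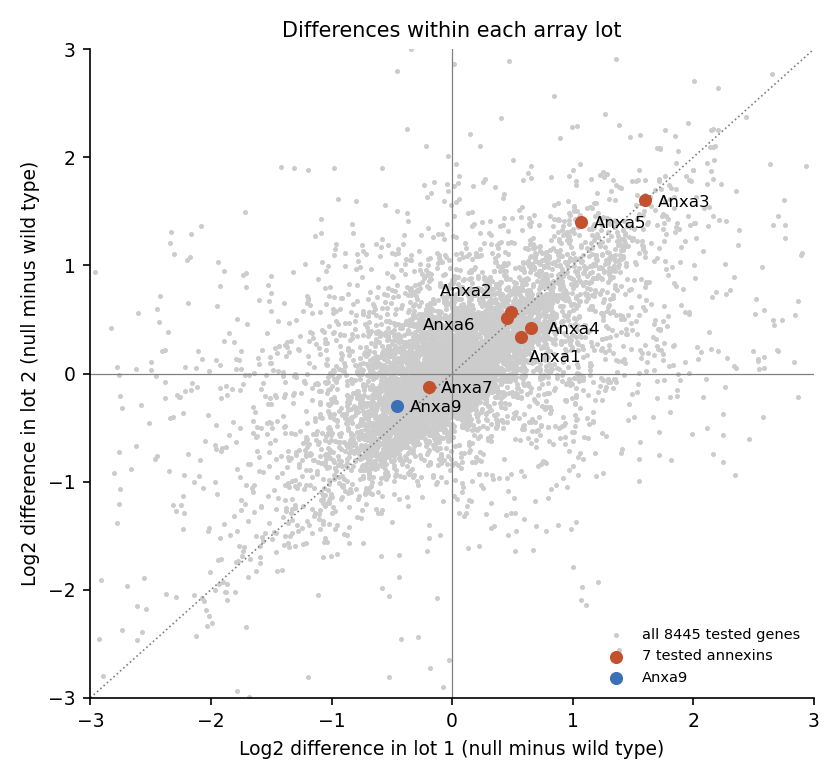
Log2 difference (null minus wild type) in lot 1 on the horizontal axis and in lot 2 on the vertical axis, for the 8445 tested genes in grey, the 7 tested annexins in orange and Anxa9 in blue, with the line of equal differences dotted. The axes end at 3 either way, which leaves out 52 grey genes, and 6 of the 7 annexins lie in the quadrant where both lots are above 0, with Anxa3 at 1.60 and 1.60.

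Most of the tested annexins had more signal on the null arrays. Of the 7 tested, 5 had both null arrays above both wild-type arrays (Anxa2, Anxa3, Anxa4, Anxa5 and Anxa6), against 22.6% of all tested genes, and 0 had both below, against 23.1%. The null array was the higher one in both lots for 6 of the 7, against 33.6% of all tested genes. At least a 2-fold higher signal in both lots was seen for 2 of the 7, Anxa3 and Anxa5, against 3.26% of all tested genes, and a signal at least 2-fold lower in both for 0 of the 7, against 2.2%. At an unadjusted p under 0.05 by limma there were 4 with a positive difference (Anxa3, Anxa4, Anxa5 and Anxa6) and 0 with a negative one, against 9.65% and 6.83% of all tested genes. With the lot as a block there were 6 of 7 with a positive difference at that level, against 13.3%. The median log2 difference of the 7 was 0.53, beside -0.02 over all tested genes. Each of the 7 read above the array median of 470 units on all 4 arrays, so none passed the filter on dim probes through 1 genotype alone.

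Over all genes the same test called 10 of 8445 at a limma adjusted p under 0.05, and 0 when the lot was a block. It called 291 of the 4967 genes tested when the brightest 25% of probes were kept, and 295 of 8445 under a variance trend. The annexin calls were 2 of 6 tested and 2 of 7 tested under these last settings, so they came with many more calls elsewhere.

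Marker genes of several cell types differed between the genotypes on these arrays, and their part in the annexin differences was not tested. The 11 late neutrophil markers with a probe summed to 1369470 and 1485620 units on the wild-type arrays and 158427 and 148105 on the null arrays. Of these, 11 of 11 were lower without overlap, against 23.1% of all tested genes. By limma 7 were called at an adjusted p under 0.05, against 0.118% of all tested genes. The lowest signal among the late neutrophil markers was 276 units, that of Mmp9 on null array 2, within the Y-linked background range. Ltf read 356 and 440 units and Mmp9 379 and 276 on the null arrays, below the array median of 470. These 2 genes passed the filter on dim probes through wild type alone. The 7 early granulocyte markers summed to 1689230 and 1602690 units on the wild-type arrays and 4112760 and 3460850 on the null arrays, with 6 of 7 higher without overlap, 0 called by limma and 6 at an unadjusted p under 0.05. Of all tested genes, 22.6% were higher without overlap and 9.65% were higher at that p. Of the 5 monocyte and macrophage markers with a probe, 4 were tested and 4 of 4 were higher without overlap (0 called by limma, 4 at an unadjusted p under 0.05), with sums of 47486 and 41598 units on the wild-type arrays and 88618 and 94454 on the null arrays. The annexin signals summed to 92130 and 82165 units on the wild-type arrays and 139193 and 124172 on the null arrays, so the sum of each null array was above that of each wild-type array. This sum includes the untested Anxa11 and is weighted to the bright probes. Anxa2 alone gave 41328 and 28264 units of it on the wild-type arrays and 57964 and 41807 on the null arrays.

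Other markers were described in the same way. The median log2 difference was -0.92 over 7 erythroid, 0.77 over 5 megakaryocyte, 0.51 over 7 stem and multipotent, 1.07 over 4 B lineage, 0.46 over 4 T and natural killer, and 0.56 over 5 stroma and endothelium markers. In these lists, 0 genes were called by limma at an adjusted p under 0.05, and 12 of their 32 tested genes had a positive and 7 a negative difference at an unadjusted p under 0.05, against 9.65% and 6.83% of all tested genes. Among the positive ones, Tek read 184 and 263 units and Klrb1c 350 and 374 on the wild-type arrays, below the array median of 470. These genes passed the filter on dim probes through the null arrays alone. The T and natural killer median lies between Thy1, at 0.05, and Ncr1, at 0.86. The groups of Ncr1 overlapped, with log2 differences of 1.62 in lot 1 and 0.10 in lot 2. Wild-type array 1 read 268 units for Ncr1, within the Y-linked background range. In that list 1 of 4 was higher and 0 lower without overlap, against 22.6% and 23.1% of all tested genes. The B lineage median covers tested genes only and leaves out Ms4a1 and Pax5, which the filter on dim probes removed. Ms4a1 went against this median, with a wild-type mean of 1605 units and a null mean of 105. The means of Pax5 were 224 units for wild type and 294 for null, both within the Y-linked background range. Tested genes of other lists also went against their median. Vwf of the megakaryocyte list, at -0.88, and Col1a1 of the stroma and endothelium list, at -0.76, were lower without overlap. Kit and Mecom of the stem and multipotent list, at -0.19 and -0.24, overlapped. Higher without overlap were 4 of 5 megakaryocyte, 5 of 7 stem and multipotent and 3 of 5 stroma and endothelium markers. Of all tested genes, 22.6% were higher and 23.1% lower in this way.

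The S100 genes fixed as annexin partners, a list that leaves out the neutrophil genes S100a8 and S100a9, were read next. Of 5 tested, 5 had both null arrays above both wild-type arrays, against 22.6% of all tested genes, and 0 passed limma over all genes, with 3 at an unadjusted p under 0.05, against 9.65% higher among all tested genes. By the naming rule, S100a4, a binding partner of Anxa2 and of myosin, had the largest difference repeated in both lots and S100a13 the smallest. S100a4 read 12892 and 11613 units on the wild-type arrays and 26044 and 23926 on the null arrays, a log2 difference of 1.03 with an SE of 0.18 (limma adjusted p = 0.111). S100a13, a partner in the release of growth factors that lack a signal peptide, had a log2 difference of 0.52 with an SE of 0.21 (limma adjusted p = 0.349).

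S100a10 and S100a11 are named as the classical partners of Anxa2 and Anxa1, after their values were seen. S100a10 read 33273 and 33180 units on the wild-type arrays and 54884 and 52054 on the null arrays, a 1.61-fold higher mean (limma adjusted p = 0.181). Its partner Anxa2 was 1.44-fold higher on the same arrays. S100a11 read 74537 and 82120 units on the wild-type arrays and 171409 and 151126 on the null arrays, 2.06-fold higher (limma adjusted p = 0.113), beside 1.37-fold for Anxa1. For both S100 genes all null signals were above all wild-type signals. The remaining tested partner, S100a6, had a log2 difference of 0.35.

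The receptor and enzyme genes tied to Anxa1 went in different directions. Fpr2, the formyl peptide receptor through which Anxa1 acts, read 1179 and 1673 units on the wild-type arrays and 528 and 602 on the null arrays. All null values were below wild type, with a log2 difference of -1.32 with an SE of 0.25 (limma adjusted p = 0.125) and 2.49-fold more signal in wild type. Pla2g4a, the cytosolic phospholipase A2 whose activity annexin A1 restrains, read 18781 and 17638 units on the wild-type arrays and 27353 and 25538 on the null arrays, a log2 difference of 0.54 with an SE of 0.17 (limma adjusted p = 0.262). Fpr-rs3 was the other gene tested of this list and its groups overlapped, so 1 of 3 was higher and 1 of 3 lower without overlap, against 22.6% and 23.1% of all tested genes. With limma 0 passed over all genes, and 2 had an unadjusted p under 0.05, against 16.5% of all tested genes.

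Partners in membrane repair and calcium sensing were mixed. Of 7 tested, 1 was higher and 3 were lower without overlap, against 22.6% and 23.1% of all tested genes. Their median log2 difference was 0.19, and 0 passed limma over all genes, with 1 at an unadjusted p under 0.05, against 16.5% of all tested genes. Gca, or grancalcin, a penta-EF-hand protein of granulocytes, read 650 and 707 units on the wild-type arrays and 1596 and 1663 on the null arrays, a log2 difference of 1.27 with an SE of 0.17 (limma adjusted p = 0.0975). Sri, or sorcin, a penta-EF-hand protein that binds Anxa7, read 90064 and 70728 units on the wild-type arrays and 66984 and 54548 on the null arrays. Its log2 difference was -0.40 (SE 0.23, limma adjusted p = 0.497), beside -0.16 for Anxa7. Genes that set the exposure of phosphatidylserine, the lipid that Anxa5 binds, were mixed as well, with 2 of 5 higher and 2 of 5 lower without overlap, against 22.6% and 23.1% of all tested genes. Ano6, a calcium-activated scramblase, had a log2 difference of 0.93 with an SE of 0.17 (limma adjusted p = 0.122). Plscr1, a phospholipid scramblase gene induced by interferon, had one of -1.03 (SE 0.34, limma adjusted p = 0.275). In this list 0 of 5 passed limma over all genes and 2 had an unadjusted p under 0.05, 1 in each direction, against 9.65% higher and 6.83% lower of all tested genes.

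**Figure D3:**
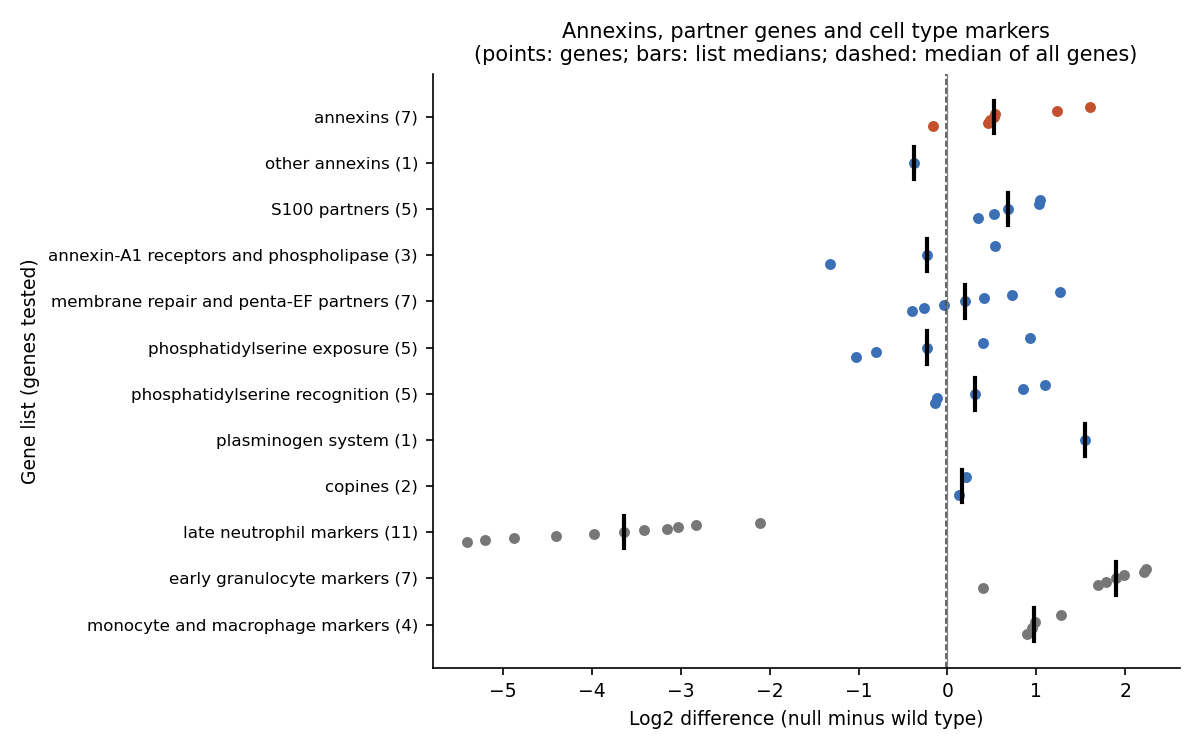
Log2 difference (null minus wild type) of each tested gene in the annexins (orange), their partner lists (blue) and 3 marker lists (grey), with black bars for list medians, a dashed line for the median of all tested genes and the number of genes tested in brackets. The annexin median was 0.53 and that of the S100 partners 0.69, while the late neutrophil markers all lie left of -2.

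The genes whose profile over the 4 arrays was most like that of Anxa3, by the distance between log2 values centred on each gene's mean, were Mgst2, Trem3, Lmo1, Serpinb1a and Adssl1. The distances were 0.04, 0.05, 0.08, 0.10 and 0.11 log2 units, over 4 arrays that share 2 genotypes and 2 lots. Mgst2, a microsomal glutathione transferase, read 13072 and 11553 units on the wild-type arrays and 40804 and 35881 on the null arrays, and Trem3, a myeloid receptor, read 12941 and 11792 against 39747 and 34888. Serpinb1a encodes an inhibitor of neutrophil serine proteases, Lmo1 a LIM-only transcription cofactor and Adssl1 an enzyme of purine synthesis.

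Probes with 1 gene symbol were also present for 4 other annexins. Anxa9, an annexin with altered calcium sites, read 5022 and 2685 units on the wild-type arrays and 3667 and 2181 on the null arrays. The groups overlapped, and the log2 difference was -0.38 (SE 0.44, limma adjusted p = 0.766), with -0.45 in lot 1 and -0.30 in lot 2. Lot 2 minus lot 1 was -0.90 on the wild-type arrays and -0.75 on the null arrays, a shift reached by 4.65% of tested genes. With the lot as a block its SE was 0.12 and its limma adjusted p 0.223. Anxa8, Anxa10 and Anxa13, known from epithelia, read at most 232 units on any array, in or below the range of the Y-linked probes, and no fold is given for them.

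**Figure D4:**
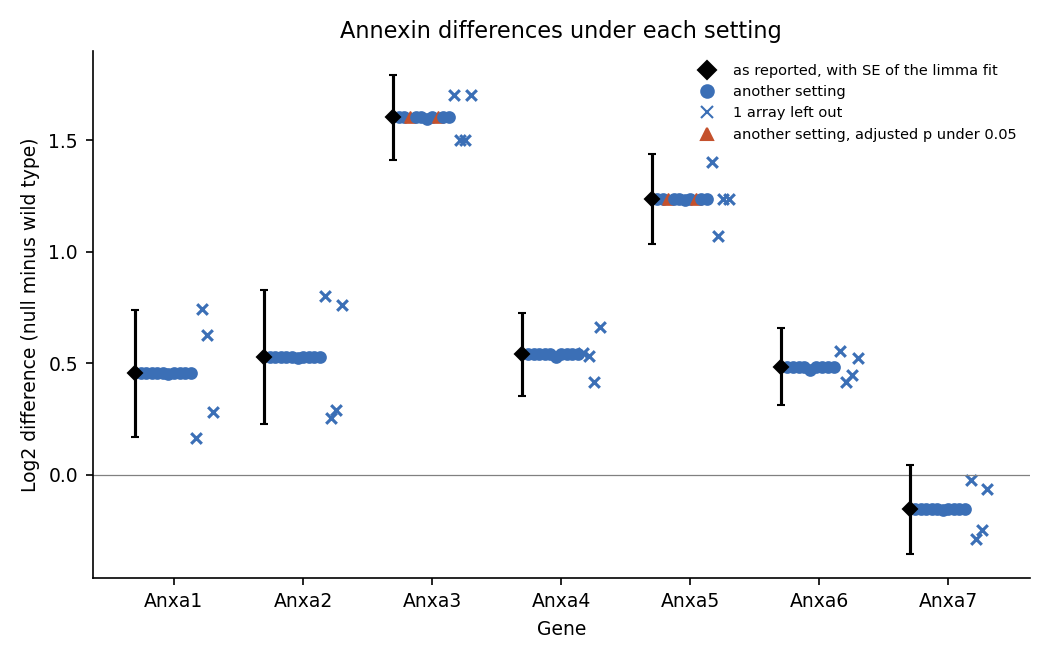
Log2 difference (null minus wild type) of the 7 tested annexins as reported (black diamonds with the SE of the limma fit), under other settings (circles), with 1 array left out (crosses) and where another setting gave a limma adjusted p under 0.05 (orange triangles). The only triangles are those of Anxa3 and Anxa5, and the crosses of Anxa1 run from 0.16 to 0.74.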

How the data were processed

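RNA of lineage-negative marrow was labelled with digoxigenin and read on single-colour Applied Biosystems arrays, per the labels' protocols. The deposited file gives a linear intensity for each of 33012 probes, and its 4 columns already share a common distribution. For background correction and detection calls the method is not given in these sources. Probes were named from the platform annotation, of which 14411 had 1 gene symbol, 247 several and 18354 none, and 14402 were found in RefSeq (GRCm38.p6) by Entrez identifier.

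A floor at the 1st percentile (75.8 units) was set and log2 taken, the brighter 50% of probes were kept, and the probe with the highest mean signal stood for a gene, giving 8445 genes. Null minus wild type was tested in R 4.3.3 with lmFit and eBayes of limma 3.58.1 (2 residual and 2.11 prior degrees of freedom), with Benjamini-Hochberg adjustment over all 8445 genes and a threshold of 0.05. A fold is that of mean log2 signals. With 2 arrays against 2, an exact permutation test cannot go below p = 0.333. The fit was tested on simulated data. Figures used matplotlib 3.10.9 in Python 3.11.15.

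The replicate number is the array lot, per the series text, so the arrays pair within lots. The deviations of the arrays from their genotype means correlated at 0.50 over genes within a lot. The alternative fit has the lot as a block. Alternatives cover the filter, floor, scaling, prior, probe rule and each array left out.

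Named were all annexins, Cbfa2t3, the genes nearest to the annexin with the largest repeated difference, and, per partner list, the highest and lowest gene by the smaller within-lot difference of 1 sign. The members and lists were chosen with earlier results of these data known. No set test was run.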

Additional observations from a re-analysis of the deposited data

How the results depend on the processing

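The 7 tested annexins gave 97 log2 differences under 14 alternatives, of which 0 changed sign, 4 newly passed and 93 stayed on their side of the threshold. The count of annexins past limma's adjusted p of 0.05 was 0 as reported, 2 (Anxa3 and Anxa5) for the brightest 25% of probes, which left Anxa6 untested, and 2 under a variance trend. It stayed at 0 with each array left out. Over all genes limma called 10 as reported. It called 0 with the lot as a replicate block, where 2055 genes had an unadjusted p below 0.05, and 0 when no dim probe was filtered out, where 1514 did. It called 291 of the 4967 genes tested when the brightest 25% were kept and 295 of 8445 under a variance trend. The cause of these changes was not tested. The block changed no annexin call.

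Leaving out an array in turn gave 0 to 0 called genes over all, and 678 to 1438 had an unadjusted p below 0.05. The single remaining array of a genotype was then taken to vary as the other genotype does. The annexins without overlap then numbered 5 to 6 higher and 0 to 1 lower. The lower one appeared when wild-type array 2 or null array 1 was left out. With an array left out, Anxa1 ran from 0.16 without wild-type array 1 to 0.74 without wild-type array 2, Anxa2 from 0.25 without wild-type array 2 to 0.80 without wild-type array 1, and Anxa7 from -0.29 to -0.03. Anxa3 ran from 1.50 to 1.70, Anxa4 from 0.42 to 0.66, Anxa5 from 1.07 to 1.40 and Anxa6 from 0.41 to 0.55. The range of adjusted p over all alternatives was 0.0151 to 0.494 for Anxa3 and 0.0250 to 0.540 for Anxa5. Signals near the range of the Y-linked probes limit what can be said of Anxa8, Anxa10, Anxa11 and Anxa13.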

Other observations

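Genes for the recognition of phosphatidylserine, the lipid that Anxa5 binds, were read on these arrays as well. Pros1, the bridging protein S of the TAM receptors, read 1715 and 1221 units on the wild-type arrays and 3988 and 2406 on the null arrays, a log2 difference of 1.10 with an SE of 0.35 (limma adjusted p = 0.261). Havcr2, the TIM-3 receptor gene, had a log2 difference of -0.14 (limma adjusted p = 0.917) with overlapping groups. Of 5 genes of this list tested, 2 were higher and 0 lower without overlap, against 22.6% and 23.1% of all tested genes, and the median was 0.31. By limma 0 passed over all genes, with 2 at an unadjusted p under 0.05, against 16.5% of all tested genes.

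Of the plasminogen system, which the complex of Anxa2 and S100a10 binds, Serpinb2 alone was bright enough to be tested. This inhibitor of plasminogen activators read 2315 and 1278 units on the wild-type arrays and 5926 and 4283 on the null arrays, a log2 difference of 1.55 with an SE of 0.38 (limma adjusted p = 0.181). Among the copines, another family of calcium-dependent phospholipid-binding proteins, 2 genes were tested and Cpne2 had a log2 difference of 0.21 with an SE of 0.19 (limma adjusted p = 0.686). Beside the annexins' median of 0.53, that of the copines was 0.17.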
